A study of Mus musculus with 19 samples.

Results

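The genes described here are the mouse loci that carry only a provisional name, either Gm followed by a number or an identifier ending in Rik, and on which extrachromosomal circular DNA (eccDNA) was found repeatedly in spinal cord. They were selected on the measured values themselves: a row of the deposited table was taken when its symbol had such a form and its value was above 0 in 3 or more of the 19 libraries, and Gm41335, present in 12 libraries, was left out. This gave 162 of 8336 rows, 110 of them Gm and 52 of them Rik symbols, out of 2227 rows with such symbols. Of the remaining Gm and Rik rows, 291 had a value above 0 in 2 libraries and 1773 in 1 library.

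EccDNA had been purified from the cervical spinal cord of 9 ALS and 10 Control mice, 1 library per animal, to ask whether genes shed more circles in a genotoxic model of amyotrophic lateral sclerosis. The ALS animals were male B6.Cg-Tg(SOD1*G93A)1Gur/J mice, which constitutively overexpress a mutant human superoxide dismutase gene and were included when they reached a motor severity score of 1 or 2 at 18 to 21 weeks of age. The Control animals were C57BL/6J mice of the same sex and age without the transgene, and no group carried a wild-type human SOD1 transgene, so that the mutation and the overexpression cannot be told apart. In every sample, 400 ng of DNA were digested with exonuclease V for 7 days, which removes linear DNA, and the circles left were copied by rolling circle amplification (RCA) for 48 h. Mutants without timely motor signs had been excluded.

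Gm symbols are given to gene models predicted from the genome sequence, and Rik symbols to transcripts first seen in the RIKEN collection of mouse full-length cDNAs. Most of them remain uncharacterized, and many are long non-coding RNAs (lncRNAs), transcripts without a known protein product. EccDNA is cut out of the chromosomes in small pieces, for example during the repair of breaks, and carries the sequence of the place it came from. A value for a gene therefore says that circles with all or some of its sequence were found, not that the gene was transcribed, and it marks no cell type. In tissue DNA, more cells with a circle and more circles per cell cannot be told apart.

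The value of a gene is its PpGC, the produced per gene circles. A circle is recognized by split reads, which run across the junction that closes it. All split reads of the circles touching a gene were summed and scaled up for short genes by the ratio of the longest gene to the gene itself, and log2(PpGC + 1) was deposited. With annotated lengths, 99.5% of the 579 values above 0 on genes that could be placed came back as whole split reads, which are given below beside the log2 values. The lowest value was 2 split reads, and a value of 0 means that fewer were found at this depth. Split reads on all placed genes, which are themselves the circle signal, ranged from 74017 to 391395 in ALS and from 3583 to 123388 in Control libraries. Since RCA multiplies each circle, split reads are no count of molecules and carry no interval here.

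Of the 162 genes, 154 could be placed on the mm10 build by their symbols in GENCODE release M21. They comprised 119 lncRNA genes, 26 protein-coding genes, 7 pseudogenes, 1 miRNA gene and 1 locus of the class TEC, which awaits experimental evidence. The lncRNA genes were in turn 73 intergenic, 28 antisense and 15 processed transcripts, with 2 that share a bidirectional promoter and 1 sense overlapping. Chromosomes 2 and 8 held the most members with 14 each, followed by chromosome 1 with 12 and chromosome 15 with 11. The median gene length was 179 kb, compared to 250 kb for the 1113 other rows present in 3 or more libraries and 19.4 kb for the Gm and Rik rows below that number. Long genes offer more ground for circles, but whether this is why the rule on presence took longer genes was not tested. At the edge of the rule, the 96 members present in exactly 3 libraries had a median length of 150 kb and a median difference of 2.17 (ALS minus Control, log2 scale), against 64.3 kb and 1.84 for the 291 rows present in 2 libraries.

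The sequences below show how different the ground of these genes is. Gm27878, the shortest member, is the only one for which the whole gene can be printed. It is annotated as a miRNA gene of 106 bases at chr4:3051714-3051819 (mm10, minus strand), between the start of the chromosome and the vomeronasal receptor gene Vmn1r2, which begins 116 kb away. It is shown from 5′ to 3′ because its value rests on so little sequence, and lower case marks no repeat here:

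Gm27878: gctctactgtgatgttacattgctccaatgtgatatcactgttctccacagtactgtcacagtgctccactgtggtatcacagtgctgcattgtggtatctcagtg

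Shifted by 21 bases against itself, this sequence was identical at 64 of 85 positions (75.3%), and shifted by 42 bases at 46 of 64 (71.9%), so that it is built of short repeats in tandem. The exact sequence was found only once in the assembled chromosomes, at the gene itself, and scaffolds outside them were not searched. Next, the ground around the start of 3 members is shown: D430041D05Rik and Gm10649, which had circles in ALS libraries only, and A230006K03Rik, which had them in Control libraries only. Each window runs from 250 bases before to 50 after a start in RefSeq (GRCm38.p6, minus strand for all 3), and capitals mark the dinucleotide CG. The circles themselves are not resolved within a gene, and no circle is claimed for these windows:

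D430041D05Rik (chr2:104410285-104410584): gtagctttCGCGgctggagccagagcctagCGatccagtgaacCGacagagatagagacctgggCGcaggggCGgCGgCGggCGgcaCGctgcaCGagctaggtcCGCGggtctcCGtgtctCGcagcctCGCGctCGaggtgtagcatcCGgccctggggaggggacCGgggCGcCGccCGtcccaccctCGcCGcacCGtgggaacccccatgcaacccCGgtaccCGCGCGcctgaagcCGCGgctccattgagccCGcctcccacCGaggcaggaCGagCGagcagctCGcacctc

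Gm10649 (chr8:76900572-76900871): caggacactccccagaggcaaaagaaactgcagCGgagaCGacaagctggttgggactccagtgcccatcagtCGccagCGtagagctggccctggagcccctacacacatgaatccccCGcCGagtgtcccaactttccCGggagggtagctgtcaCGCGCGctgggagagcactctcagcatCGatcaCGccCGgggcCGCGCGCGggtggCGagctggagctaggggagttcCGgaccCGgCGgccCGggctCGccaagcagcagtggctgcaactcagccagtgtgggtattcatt

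A230006K03Rik (chr7:61311600-61311899): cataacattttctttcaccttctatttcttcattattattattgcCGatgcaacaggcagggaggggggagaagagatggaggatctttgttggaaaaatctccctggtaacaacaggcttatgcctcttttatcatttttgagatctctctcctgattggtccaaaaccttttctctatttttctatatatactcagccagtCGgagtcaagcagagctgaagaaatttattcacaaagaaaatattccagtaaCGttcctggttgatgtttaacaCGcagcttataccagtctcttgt

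The window of D430041D05Rik held 37 CG and 72.3% G and C, and 5.58% of all 32851 windows held as many CG. Gm10649 held 23 CG at 65.3% G and C, as many as 21.5% of windows. A230006K03Rik held 4 CG at 38.7% G and C, a number reached by 68.6% of windows. The 78 members with a RefSeq window had a median of 6 CG per window, compared to 7 over all windows, and a median of 45.7% G and C against 52.7%. Over their whole length, the 154 placed members were poorer in G and C than the table at large, with a median of 40.2% against 41.8% in the other recurrent rows and 43.3% over all rows. CpG sites numbered 6.38 per kb, compared to 8.52 and 9.94. Soft-masked repeats covered a median of 32.5% of a member, against 25.9% and 25.2%. These are descriptions of genes selected on their values, and no test was attached to them.

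Most members had circles in few libraries. An eccDNA was present in 3 libraries for 96 members, in 4 for 36, in 5 for 15, in 6 for 9, in 7 for 2, in 8 for 3 and in 10 for 1. In 70 members circles were seen in ALS libraries only, in 91 in both groups and in 1, A230006K03Rik, in Control libraries only. No Control library held a circle in 43.2% of members, in 42.8% of the other recurrent rows and in 6255 of all 8336 rows. By chromosome, this was so in 6 of 6 members on chromosome 10 and 1 of 1 on chromosome 17. It was so in 0 of 8 members each on chromosomes 3 and 11, 0 of 6 on 14, 0 of 4 on 18, 0 of 3 on 19 and 0 of 2 on X. How many of the circle-bearing genes of an ALS library came from a given chromosome varied between libraries, with a chi-square per degree of freedom above 4 and up to 20.6 on chromosomes 1, 10 to 16, 18 and X, and from 0.36 to 1.99 on the others. Without a Control circle were 35 of 80 members on chromosomes 2 to 9, where it was at most 1.95, and 31 of 74 on the rest, and the part of these shares in single values was not tested. In 150 members the ALS mean was the higher (92.6%) and in 12 the lower, where it was the higher in 96.0% of the other recurrent rows and 86.5% of all rows. The median difference of the members was 2.26. The other recurrent rows had a median difference of 2.60 and all rows 1.19. The ALS mean was also the higher in 1728 of the 2064 Gm and Rik rows below 3 libraries, so that the direction is no feature of the members alone.

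**Figure D1:**
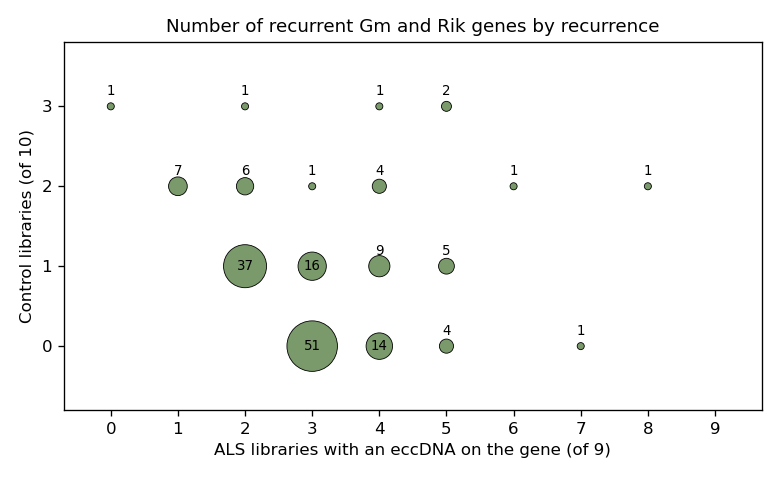
Recurrence of the 162 genes. The x axis gives the number of ALS libraries with an eccDNA on the gene (of 9), the y axis the number of Control libraries (of 10), and each circle, with its area to scale, the number of genes printed on or above it. The most frequent combination is 3 ALS libraries and no Control library with 51 genes, and the farthest to the right is Gm37240 with 8 ALS and 2 Control libraries.

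An ALS library held an eccDNA on 54.1 ± 19.6 (SD, n = 9) members, with a range of 29 to 91 and a median of 48, and a Control library on 12.2 ± 10.0 (SD, n = 10), with a range of 3 to 35 and a median of 9. This is a ratio of 4.44 between the means, compared to 5.35 times for all genes with an eccDNA and 4.83 times for the other recurrent rows. Control 1, with 35 members, exceeded the lowest ALS library, ALS 6 with 29, so that the groups overlap in this library, while the other 9 Control libraries held at most 22. As a share of all genes with an eccDNA in a library, the members made up 4.17 ± 0.41% (SD) in ALS and 5.17 ± 1.41% (SD) in Control libraries. Where circles were present, the median log2 PpGC of the members in a library was 7.56 ± 0.46 (SD) in ALS and 7.42 ± 1.02 (SD) in Control libraries.

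**Figure D2:**
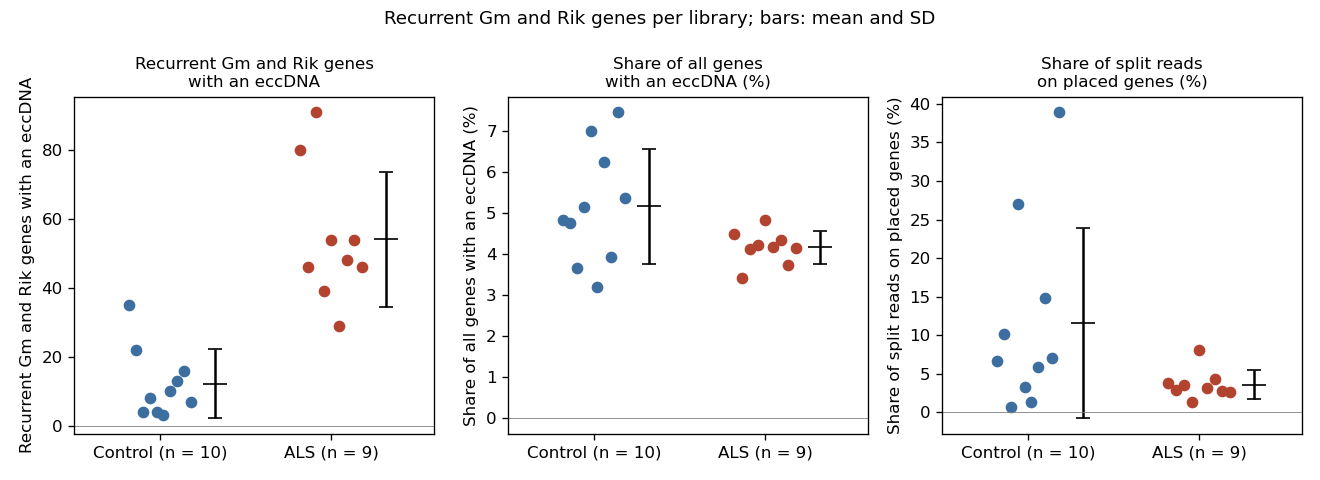
Members per library. The y axes give, from left to right, the number of members with an eccDNA, their share of all genes with an eccDNA in percent and their share of the split reads on placed genes in percent, with 1 point per library and the mean and SD as bars beside the points. ALS libraries hold 29 to 91 members and Control libraries 3 to 35, and the share of split reads is highest in Control 10, with 39.0%.

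Which members were present differed between animals of the same group. The 36 pairs of ALS libraries had a median of 16 members in common (range 4 to 40), which is a median of 37.4% of the shorter and 25.6% of the longer of both lists. In the 45 pairs of Control libraries the median was 0 and the maximum 4 members. Libraries with more members can have more of them in common, and no test was made of these numbers.

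Each row of the table was then compared between the groups, and a row passed when its ALS mean lay more than 1 above the Control mean on the log2 scale with an unadjusted parametric p under 0.01. In ALS, 6 members (3.70%) were higher by both thresholds, where 1.33% of all rows and 9.43% of the other recurrent rows were. Lower in ALS were 0 members, and also 0% of all rows. With each library's count of circle-bearing genes as covariate, 0 members were higher and 3 lower. Over all rows, that covariate gave 26 higher and 84 lower. At a parametric p under 0.05, 26 members were higher, where the share over all rows was 4.20%, and 0 were lower. Adjusted over all 8336 rows with the method of Benjamini-Hochberg, no member passed by the parametric test used here or by the exact permutation test, while limma's moderated test left 1 member, D430041D05Rik, at an adjusted p under 0.05. The smallest adjusted p was 0.217 with that parametric test and 0.261 with the exact permutation test, which compares the observed difference with all 92378 assignments of the 19 samples. Of the 2064 Gm and Rik rows below 3 libraries none passed both thresholds, so that presence and the test are not independent, and the shares above are a description. Among genes over 200 kb, 5 of 65 members (7.69%) and 94 of 660 other recurrent rows (14.2%) were higher by both thresholds.

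The 6 members were Gm37240, D430041D05Rik, Gm12648, Gm28494, Gm10649 and Gm46392. All of them except Gm46392 are also on the paper's list of genes higher in ALS. Without the length scaling only Gm37240 and D430041D05Rik passed both thresholds, and with each library's count of circle-bearing genes as covariate, which follows the group, or with a pseudocount of 100, none of the 6 did. Gm37240 was the most recurrent of all. It is a protein-coding gene model of 1391 kb at chr3:84496426-85887518 on the minus strand, the longest member, and spans 7 other protein-coding genes, among them Fbxw7, which encodes the substrate receptor of a ubiquitin ligase, and Arfip1, which encodes a binding partner of ARF proteins. Its split reads numbered 19 in ALS 1, 95 in ALS 2, 6 in ALS 3, 15 in ALS 4, 1027 in ALS 6, 6 in ALS 7, 389 in ALS 8 and 4 in ALS 9, against 3 in Control 1 and 2 in Control 7. No circle was found in ALS 5 and in the other 8 Control libraries. Every ALS library with a circle was above both Control values, and ALS 5 at 0 overlaps the Control group. The log2 PpGC was 6.02 ± 3.57 (SD, n = 9) in ALS and 0.63 ± 1.33 (SD, n = 10) in Control libraries, a difference of 5.39 (exact two-sided permutation p = 2.81e-04).

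The genes inside Gm37240 accounted for part of these reads. In ALS 4, Fbxw7 on the opposite strand had the same 15 split reads, and in ALS 2 the antisense gene 1700036G14Rik had 92 of the 95. Fam160a1 had 2 split reads in Control 7 and 4 in ALS 7, and Arfip1 had 3 in ALS 3. In ALS 1, 6, 8 and 9 no overlapping gene of the table had a value above 0, so that the 1027 and the 389 split reads were counted for Gm37240 alone.

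D430041D05Rik showed the largest difference among the 162 genes. It is a protein-coding gene of 268 kb on chromosome 2 at chr2:104143073-104411013, next to the kinase gene Hipk3, which lies 15.5 kb away. Split reads were found in 7 ALS libraries, with 2 in ALS 1, 24 in ALS 2, 12 in ALS 3, 34 in ALS 4, 5 in ALS 5, 1753 in ALS 7 and 3 in ALS 8. All 10 Control libraries, ALS 6 and ALS 9 were at 0. ALS 7 alone held 95.6% of the split reads, yet on the log2 scale the difference was 6.38 with all libraries and 5.32 without ALS 7. The log2 PpGC was 6.38 ± 4.60 (SD, n = 9) in ALS (exact two-sided permutation p = 7.14e-04). Of the overlapping rows, a single snoRNA gene, Gm22501, had a value, with 13 split reads in ALS 4.

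**Figure D3:**
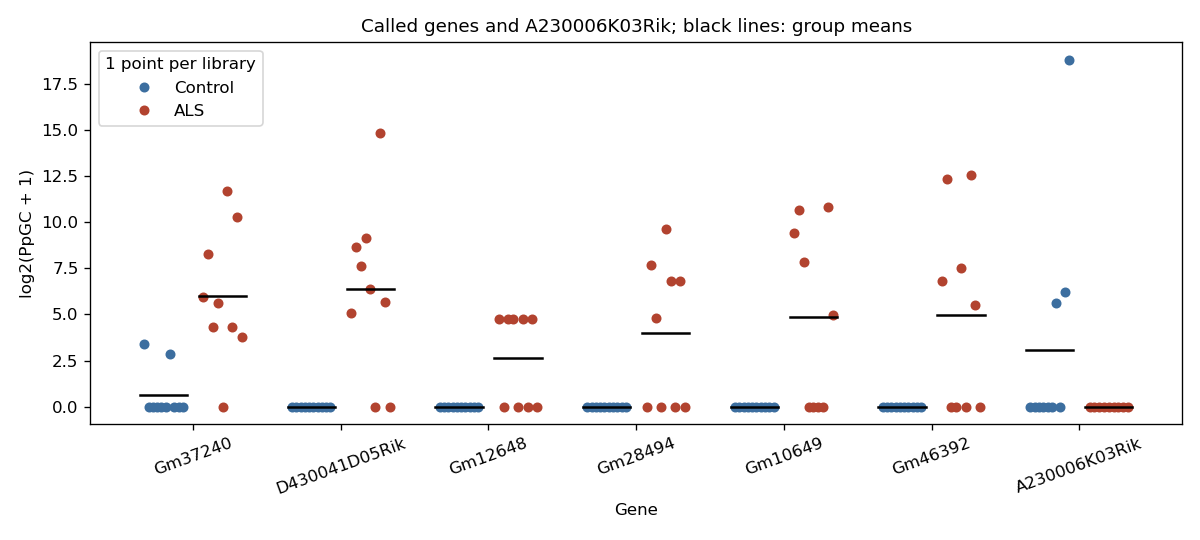
The 6 members higher in ALS by both thresholds and A230006K03Rik. The y axis gives log2(PpGC + 1), with 1 point per library in blue for Control and red for ALS and black lines at the group means. Control libraries are at 0 in 5 of the 6 genes, ALS libraries at 0 occur in all 6, and the point at 18.79 is A230006K03Rik in Control 10.

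The other 4 were each present in 5 ALS libraries and in no Control library, and all 4 therefore have the same exact two-sided permutation p of 0.0108. Gm12648 is an intergenic lncRNA gene of 336 kb at chr4:94089576-94425588 with 74.5 kb to the next protein-coding gene, Caap1, a regulator of apoptosis. It had 2 split reads, the lowest number that could be counted, in each of ALS 1, 3, 4, 6 and 8. Its call thus rests on 10 split reads in all, and the log2 PpGC was 4.78 in all 5 libraries, with a mean difference of 2.65.

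Gm28494 at chr2:114897916-115220708 and Gm13974 on the opposite strand share 146057 bases of ground in an interval without protein-coding genes. Gm28494 had 15 split reads in ALS 2, 2 in ALS 3, 58 in ALS 5, 8 in ALS 6 and 8 in ALS 8, and a difference of 3.97. Gm13974 had 2, 8 and 8 split reads in ALS 3, 6 and 8, equal to those of Gm28494, and another 2 in ALS 1. It was present in 4 ALS libraries with a difference of 2.92 (exact two-sided permutation p = 0.0325) and did not pass both thresholds. Whether these came from the same circles is not resolved by the values. Gm28494 did not pass both thresholds without ALS 2, 3, 5, 6 or 8.

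Gm10649 is a lncRNA gene of 295 kb at chr8:76605226-76900621 that starts from the promoter of Nr3c2, the gene of the mineralocorticoid receptor, and runs away from it. Split reads numbered 45 in ALS 1, 106 in ALS 2, 15 in ALS 3, 122 in ALS 8 and 2 in ALS 9, and the difference was 4.85. Without ALS 1, 2, 3 or 8 it did not pass both thresholds, and with that covariate the difference turned to -1.55. Nr3c2, which shares 0.40% of Gm10649, was present in ALS 2, 3, 8 and 9 with 17, 10, 22 and 37 split reads and in no library were the values of both genes equal. Farther from Nr3c2 on the same side, Gm45740 at chr8:75992509-76415040 had 4 split reads in ALS 5 but 55 in Control 1 and 10 in Control 8.

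Gm46392 at chr13:38710054-38908255 had 5 split reads in ALS 1, 234 in ALS 2, 8 in ALS 5, 271 in ALS 7 and 2 in ALS 8, and a difference of 4.97. The antisense partner Gm47509 shared 5 split reads in ALS 1 and had 265 in ALS 7. Gm46392 is the only one of the 6 outside chromosomes 2 to 9. It did not pass both thresholds when any 1 of the 10 Control libraries or ALS 1, 2, 5, 7 or 8 was left out, which is 15 of 19 cases, nor with all libraries brought to equal totals.

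**Figure D4:**
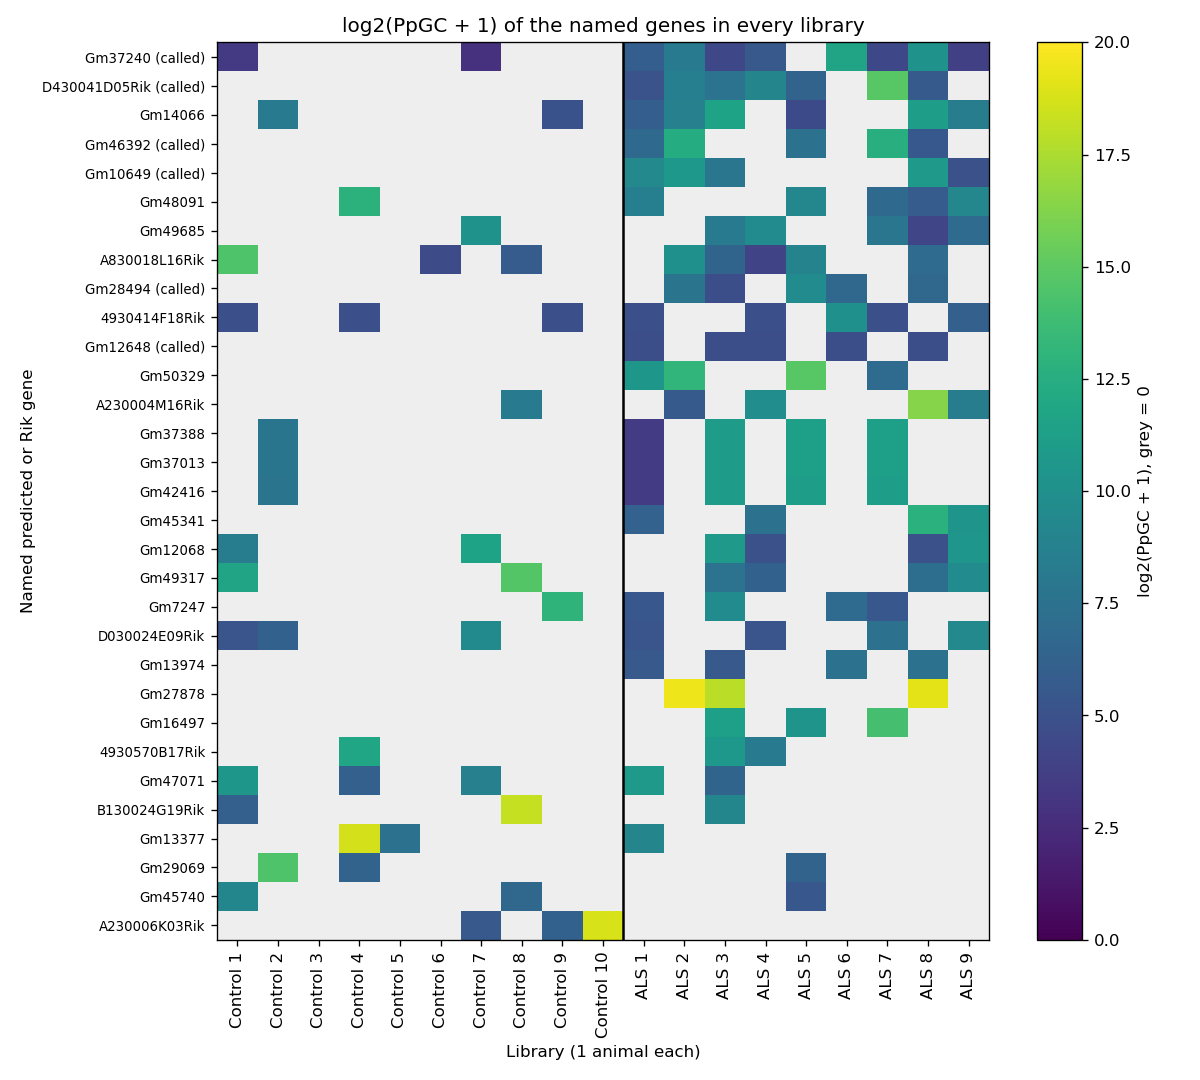
Values of the 31 named members in every library. Columns are the 10 Control and 9 ALS libraries, rows are genes ordered by the number of ALS libraries with an eccDNA, and the color gives log2(PpGC + 1), with grey for 0. Rows at the top are filled mostly to the right of the line between the groups, whereas A230006K03Rik at the bottom has values in Control libraries only.

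Further members were recurrent in ALS without passing both thresholds. Gm14066, a processed transcript of 421 kb on chromosome 2, opposite to Sptlc3, the gene of a serine palmitoyltransferase subunit, had circles in 6 ALS and 2 Control libraries. Its split reads were 6, 40, 302, 2, 209 and 34 in ALS 1, 2, 3, 5, 8 and 9, and 28 and 3 in Control 2 and 9. The ranges of both groups overlapped, and the difference was 4.28 (exact two-sided permutation p = 0.0323), or -3.11 with the same covariate. Gm50329, which could not be placed on the annotation, was present in ALS 1, 2, 5 and 7 with log2 values of 10.56, 13.18, 14.82 and 6.99, and its difference was 5.06 (exact two-sided permutation p = 0.0325).

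Gm27878, whose sequence is printed above, shows what the length scaling does to a short gene. Its split reads were 18 in ALS 2, 6 in ALS 3 and 14 in ALS 8, yet the log2 PpGC was 19.52, 17.94 and 19.16, the highest value of any member in each of these 3 libraries. By contrast, D430041D05Rik reached 14.82 in ALS 7 with 1753 split reads. The difference of Gm27878 was 6.29 with an SD of 9.45 in ALS (exact two-sided permutation p = 0.0867), and -3.78 with the covariate. Gm16497, the next shortest member with 24.2 kb, had 14, 7 and 98 split reads in ALS 3, 5 and 7 and a difference of 3.98.

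Members with circles in 3 or more Control libraries numbered 5. A830018L16Rik, a protein-coding gene of 562 kb at chr1:11414105-11975901, had 135, 11, 2, 61 and 16 split reads in ALS 2, 3, 4, 5 and 8, but also 2990 in Control 1, 3 in Control 6 and 7 in Control 8. The highest value was in a Control library, the groups overlapped throughout, and the difference of 1.56 did not exceed the spread (exact two-sided permutation p = 0.476). Without Control 1 it was 2.89, without ALS 2 it was 0.81, and with the covariate it was -3.97. The lncRNA gene 4930414F18Rik had exactly 2 split reads in Control 1, 4 and 9 and in ALS 1, 4 and 7, with 75 in ALS 6 and 5 in ALS 9. D030024E09Rik, an intergenic lncRNA gene 211 kb upstream of the proto-oncogene Myc, had 2, 4 and 40 split reads in Control 1, 2 and 7 and 2, 2, 10 and 37 in ALS 1, 4, 7 and 9. Its difference of 0.95 did not exceed the spread (exact two-sided permutation p = 0.600), and it ranged from 0.15 without ALS 9 to 1.78 without Control 7. Gm47071, antisense to the ground of the histone variant gene H2afy and the homeobox gene Pitx1, had 91, 4 and 25 split reads in Control 1, 4 and 7 and 101 and 5 in ALS 1 and 3.

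A230006K03Rik was the only member with circles in Control libraries alone. This intergenic lncRNA gene of 184 kb at chr7:61127996-61311721 lies in the imprinted Prader-Willi and Angelman region, with Snrpn 988 kb to one side and Ndn 1035 kb to the other. Split reads numbered 2 in Control 7, 3 in Control 9 and 18729 in Control 10, with log2 values of 5.62, 6.20 and 18.79, and all 9 ALS libraries were at 0. A single library thus held nearly all of them, and these reads made up 38.9% of the split reads on placed genes in Control 10. The difference was -3.06 (exact two-sided permutation p = 0.211), and without Control 10 it was -1.31.

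In 3 of the 4 next most negative differences a single Control library held nearly all split reads as well. Gm13377, a pseudogene on chromosome 2, had 9243 split reads in Control 4, 26.1% of that library, against 4 in Control 5 and 12 in ALS 1, and its difference was -1.61. B130024G19Rik, a processed transcript that overlaps Nr2f2, the gene of an orphan nuclear receptor, had 8624 split reads in Control 8, 11.5% of that library, with 2 in Control 1 and 16 in ALS 3, and a difference of -1.42. Gm29069 had 551 split reads in Control 2 with 2 each in Control 4 and ALS 5, and a difference of -1.38. For Gm45740, whose split reads are given above, the difference was -0.99, and it was -0.14 without Control 1. The exact two-sided permutation p of these 4 ranged from 0.474 to 0.737. Without the library that held most of their reads, the differences of Gm13377 and B130024G19Rik turned positive, with 0.18 and 0.33, and that of Gm29069 was 0.

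Single libraries dominated many members in ALS as well. In 115 of the 154 placed members 1 library held more than 50% of the split reads, and in 40 more than 90%, with a median share of 71.8%. The largest single value, named after the values were seen, was 19781 split reads on the intergenic lncRNA gene A830019P07Rik in ALS 5, where ALS 4 and Control 8 had 3 and 4. Gm28376 likewise had 6167 split reads in ALS 9 next to 4, 3 and 109 in ALS 3, 7 and 8, and 2610307P16Rik had 5514 in ALS 6 next to 407, 17 and 4 in ALS 1, 8 and 9. A230004M16Rik, a processed transcript on chromosome 11, had 5078 split reads in ALS 8 next to 3, 52 and 20 in ALS 2, 4 and 9 and 17 in Control 8. At the other end, 114 of the 579 placed values (19.7%) were at the minimum of 2 split reads, and 320 (55.3%) were at 10 or fewer, with a median of 8. Values of 1000 or more numbered 18, of which 10 lay in ALS and 8 in Control libraries. The members made up 11.6 ± 12.3% (SD, n = 10) of the split reads on placed genes in Control and 3.62 ± 1.89% (SD, n = 9) in ALS libraries, with maxima of 39.0% in Control 10 and 8.15% in ALS 5.

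Provisional gene models often lie on or beside known genes, and a circle over both enters the value of each. Of the 154 placed members, 73 overlapped another gene of the table, 45 on the opposite strand, 13 on the same strand and 15 on both. Of the 294 values above 0 of these members, 167 (56.8%) had an overlapping gene with a value in the same library, and 122 (41.5%) had the same number of split reads as such a gene. This concerned 55 members, and in 11 every value was equal to that of a partner.

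**Figure D5:**
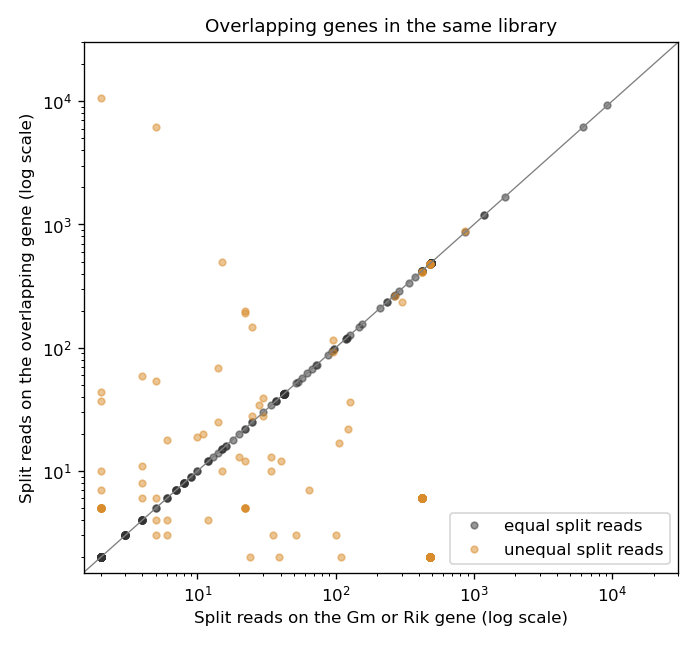
Split reads on members and on overlapping genes in the same library. Each point is 1 member, 1 overlapping gene and 1 library in which both had an eccDNA (373 points, with darker color where they coincide), both axes are logarithmic, and the grey line marks equality. On the line lie 209 points, below it, where the member has more, 128, and above it 36. Of these points, 204 belong to Gm37013, Gm37388 and Gm42416, and without these 3 members 113 of 169 points lie on the line, 29 below and 27 above.

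The clearest case was the protocadherin clusters on chromosome 18. The protein-coding models Gm37013, Gm37388 and Gm42416 cover nearly the same interval over the protocadherin genes, which encode neuronal adhesion molecules. All of them had 42 split reads in Control 2, 2 in ALS 1, 418 in ALS 3, 479 in ALS 5 and 487 in ALS 7, and their differences of 3.35, 3.35 and 3.33 (-1.26, -1.26 and -1.25 with the covariate) are 1 measurement and not 3. Several protocadherin genes had the same split reads in a library, and which ones differed: Pcdhga1, Pcdhga2 and Pcdhga3 in Control 2 with 42, 11 genes from Pcdha1 to Pcdhac1 in ALS 7 with 487, and 8 genes from Pcdha4 to Pcdhac1 in ALS 1 with 2. In ALS 3, Pcdhb14 had 412 of the 418, and in ALS 5, Pcdhb12 had 477 of the 479. Counting such members once, the 162 rows stand for 156 separate stretches, with 11 rows in 5 shared stretches and the 8 rows without a position counted singly.

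Other members had split reads equal to those of a known neuronal gene. Gm49685 lies almost wholly within Cdh12, the gene of a cadherin, and had the same split reads as Cdh12 in Control 7 (147), ALS 3 (37) and ALS 8 (2). In ALS 4, 7 and 9 Cdh12 had more, 116, 34 and 495 against 96, 28 and 15. Cdh12 itself was present in 8 ALS libraries and 1 Control library with a difference of 5.98 (exact two-sided permutation p = 0.00234) and passed both thresholds, whereas Gm49685, present in 5 ALS libraries and 1 Control library, had a difference of 3.08 (exact two-sided permutation p = 0.0851). Gm48091 overlaps Opcml, an IgLON adhesion gene, on the opposite strand. It had 264 split reads in Control 4, as Opcml had, and 14, 22, 4, 2 and 22 in ALS 1, 5, 7, 8 and 9, where Opcml had 25, 192, 8, 7 and 199. Opcml itself was present in 8 ALS and 3 Control libraries. Its difference was 4.07 (exact two-sided permutation p = 0.0147), and it did not pass both thresholds here. The paper's list of genes higher in ALS holds Opcml but not Cdh12.

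The whole of 4930570B17Rik lies within Ctnnd2, which encodes delta-catenin, and its 25, 11 and 2 split reads in Control 4, ALS 3 and ALS 4 were part of the 28, 20 and 10 of Ctnnd2. Ctnnd2 itself had a difference of 2.41 (exact two-sided permutation p = 0.0851) and did not pass both thresholds here, whereas the paper lists it as higher in ALS. Gm45341 and Gm45455 on chromosome 8 shared 7, 16 and 120 split reads in ALS 1, 4 and 9, and Gm45341 had a further 632 in ALS 8. Gm12068 and 4933430M04Rik on chromosome 11 shared 22, 118 and 97 split reads in Control 1, ALS 3 and ALS 9. Gm7247 shared 377 split reads in Control 9 and 6 in ALS 6 with Vmn2r88, a vomeronasal receptor gene, and 37 in ALS 3 with Gm5622.

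Away from such pairs, 81 placed members overlapped no other gene of the table. Set against the annotation as a whole, 93 placed members overlapped no protein-coding gene, and the nearest one lay at a median distance of 114 kb, with more than 100 kb in 49 members. Gm12648 was the only 1 of the 81 members that was higher in ALS by both thresholds, as compared to 5 of the 73 members with an overlap. Among these 5, the overlap covered only 0.047% of D430041D05Rik and 0.40% of Gm10649. By type, 4 of the 119 lncRNA genes and 2 of the 26 protein-coding genes were higher by both thresholds, and by length 5 of the 65 members over 200 kb and 1 of the 78 between 50 and 200 kb. Of the other recurrent rows, 2 of 10 lncRNA genes and 101 of 1085 protein-coding genes (9.31%) were higher by both thresholds. By length, these were 94 of 660 over 200 kb (14.2%) and 10 of 401 between 50 and 200 kb (2.49%). The counts of members are small, and differences between the classes were not tested.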

How the data were processed

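EccDNA on genes was measured in 9 ALS and 10 Control libraries, 1 per animal. The authors digested linear DNA, amplified circles by RCA, mapped paired-end reads to mm10 with Circle_Finder, removed circles with fewer than 2 split reads, assigned the rest to GENCODE genes with bedtools and deposited log2(PpGC + 1), which is scaled for gene length but not between samples. The GENCODE release and the sequencing depth of single libraries are not given in the sources used here (an average over libraries is stated and was not used), and both that depth and RCA limit how precise a value is. Groups came from the labels of the table's 19 samples, and the table held 0 columns of other samples.

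The deposited log2 values were used unchanged. Genes were placed by symbol in GENCODE M21, and split reads were recovered by undoing the length scaling with the longest gene of 4434882 bp and a tolerance of 0.02. Overlap means at least 1 shared base. Differences are means of log2(PpGC + 1), ALS minus Control. The study's methods name both thresholds (difference above 1, p under 0.01) and Student's test, not its sides, and a two-sided p was used here, single genes carry the exact two-sided permutation p, and adjustment was over all 8336 rows. In this way 111 rows were higher in ALS, and the paper lists more genes. Its list holds Gm13974, which had a two-sided Student p of 0.0178 here. The list also holds the members 2210408I21Rik, 9030622O22Rik, 9530036O11Rik and Gm34544, which were higher here at a Student p under 0.05. It further holds 4921515E04Rik, Gm11639 and Gm15218, which were not, and it lacks Gm46392, which passed both thresholds here. The cause of these differences, with any part of the test's sides, was not tested.

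The members and lists were chosen with earlier results of these data known. Named were all members past both thresholds, the 10 present in most samples, those in 3 or more Control samples, the 5 highest and 5 lowest differences, the 3 longest and 3 shortest, Gm37240, A230006K03Rik, up to 10 with split reads equal to those of an overlapping gene, and the overlapping genes, of which 1 result is not reported here. Alternatives were limma's moderated test, adjusted p-values, an exact p, a p under 0.05, a replicate block, the number of genes with an eccDNA as covariate, equal totals, no length scaling, a pseudocount of 100, presence alone, leaving out each library, and other limits for recurrence, overlap and tolerance. The restriction to chromosomes 2 to 9 and the count of 1 row per stretch were chosen after seeing the data. The tests were also run on simulated data, and the outcome is not reported here. Tools were limma 3.58.1 (R 4.3.3), and in Python 3.11.15 SciPy 1.17.1, pandas 2.3.3, NumPy 2.4.6 and, for figures, matplotlib 3.10.9.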

Additional observations from a re-analysis of the deposited data

Results flagged for a closer look

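In the named members and the sums per library, a library was singled out where its distance to the nearest other library of its group exceeded Dixon's 95% limit. Chance gives this in about 1 in 20 groups, and a group with a single value above 0 meets it by construction, so that these are values to look at and not findings. In ALS, library ALS 5 stood apart with 29469 split reads on members and a share of 8.15% of its split reads, with 19781 of these split reads on A830019P07Rik.

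Single values above 0 in ALS were those of Gm13377 in ALS 1 (log2 PpGC 9.10), B130024G19Rik in ALS 3 (9.15), Gm29069 in ALS 5 (6.38) and Gm45740 in ALS 5 (5.43). Among Control libraries, single values were those of Gm48091 in Control 4 (12.84), Gm49685 in Control 7 (10.26), 4930570B17Rik in Control 4 (11.87), Gm37013, Gm42416 and Gm37388 in Control 2 (7.76, 7.72 and 7.77), A230004M16Rik in Control 8 (8.17) and Gm7247 in Control 9 (12.97).

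Among Control libraries with further values above 0, A230006K03Rik in Control 10 (18.79), Gm13377 in Control 4 (18.69), B130024G19Rik in Control 8 (18.22), A830018L16Rik in Control 1 (14.53) and Gm29069 in Control 2 (14.47) stood far above the other libraries of the group.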

How the results depend on the processing

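The number of members higher in ALS was 6. It was 9 with limma's moderated test, 5 with equal totals per sample, and 5 on chromosomes 2 to 9, where the share of genes varied little between ALS libraries, and 6 with 1 row per shared stretch, both chosen after seeing the data. It fell to 2 without length scaling and with an exact p under 0.01, Gm37240 and D430041D05Rik both times. Fisher's exact test on presence called the same 2, which supports nothing since presence chose the members. With limma's adjusted p the count was 1 over all rows (D430041D05Rik) and 2 over the rows in 3 or more samples. The latter supports nothing for the same reason. The count was 0 with a pseudocount of 100 or the adjusted Student p, and 26 at a Student p under 0.05. Taking each library's number of eccDNA genes as covariate, which follows the group, 0 were higher and 3 lower (1700041M19Rik, Gm26939 and Gm30382). Over all rows, this covariate gave 26 higher and 84 lower, and the pseudocount left 9 of 111. Of all rows, 166 were higher with limma's moderated test, 60 with equal totals and 71 without length scaling. With limma's adjusted p under 0.05, 11 of all rows were higher. Leaving out 1 library gave 4 to 10 members. Of the 6, Gm37240, D430041D05Rik and Gm12648 passed with any 1 library left out, Gm28494 not without ALS 2, 3, 5, 6 or 8, Gm10649 not without ALS 1, 2, 3 or 8, and Gm46392 not in 15 of the 19 cases. The cause of these shifts was not tested.

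Whether replicate numbers pair the samples is not settled by the values. The deviations of same-numbered ALS and Control samples correlated by -0.02 to 0.02, and 2 of 9 samples correlated best with their own number. Most values are 0, so that low correlations do not exclude a pairing. With the replicate number as a block in limma, where Control 10 has no partner and adds nothing, 5 members were higher and 0 lower. Of all rows, 90 were higher and 0 lower with the block, against 166 higher in limma without it. Compared with the 9 of limma without the block, Gm12648, Gm30551, Gm45341 and Gm50329 no longer passed, and of these Gm12648 is 1 of the 6.

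With the covariate, the difference turned negative for Gm10649 (-1.55), Gm14066 (-3.11), A830018L16Rik (-3.97), Gm49317 (-4.61), Gm12068 (-3.43), Gm27878 (-3.78), 4930570B17Rik (-1.89), Gm37013 (-1.26), Gm42416 (-1.25), Gm37388 (-1.26) and Gm7247 (-1.08). Equal totals turned A830018L16Rik (-0.011), no length scaling Gm49317 (-0.26), and the pseudocount of 100 Gm49317 (-0.54) and Gm7247 (-0.039). Leaving out 1 library, the difference ranged from -1.74 to 0.26 for Gm47071, from -2.62 to 0.18 for Gm13377, from -2.44 to 0.33 for B130024G19Rik, from -2.09 to 0 for Gm29069 and from -0.16 to 2.10 for 4930570B17Rik.

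The rule would take 453 rows at 2 or more libraries, 66 at 4 or more, 42 with a log2 PpGC of at least 8, and 156 with 1 row per stretch. The ratio of members per library was 4.44, and 4.23 and 4.13 with the stricter limits. Overlap with another gene held for 25 members if 50% of the member had to lie within it, 28 on the same strand and 60 on the opposite strand, and the equal values fell from 122 to 57 with that share and stayed at 122 with a tolerance of 0.05. Values near 2 split reads are at the limit of detection, and absence at 0 is not shown at this depth.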
